A study of Mus musculus with 6 samples.

Results

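The genes described here lie on mouse chromosome 14, the chromosome that carries the miR-17~92 microRNA cluster, and they were examined by their distance from that cluster. Members were chosen by their level and position: a gene was taken when it was placed on chromosome 14 of mm10 and had a mean of at least 0.5 RPKM, the read count scaled to gene length and to library depth, over the 6 libraries. The entries of the cluster itself and the genes Gpc5, Gpc6, Rpl15 and Bmp4 were left out. This gave 462 genes of 13463 that passed the same filter on all chromosomes; 649 of the 1119 chromosome 14 entries lay under the filter, and 8 that passed it were cluster entries or left-out genes. Just outside the filter lay Hesx1, Tnnc1 and Plau with means of 0.491, 0.491 and 0.483 RPKM, and just inside it Traj5, Gm9199 and Cmtm5 with 0.501, 0.504 and 0.513 RPKM. In 11 members only the control mean reached 0.5 RPKM, and 7 of these were called different; in 9 only the mutant mean did, and 2 of these were called. Such members had to differ to be measured at all, so counts of calls below include some that the filter favours.

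RNA was sequenced from nephron progenitors of E16.5 mouse kidneys, sorted by the green fluorescence that the Six2TGC transgene gives to Six2-expressing cells. All animals carried this transgene, which also drives Cre recombinase in those cells. Control libraries were Six2TGC alone, and mutant libraries were Six2TGC;miR-17~92fl/fl, in which Cre removes the floxed cluster. Each genotype had 3 libraries, each a pool of cells from 4 embryos. The labels name no floxed copies in the controls and give no strain, so deletion of the cluster and any DNA inherited together with the floxed allele cannot be told apart by genotype. Depth worked out from the table lay between 27602025 and 36134381 reads per library.

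miR-17~92 is a polycistron that encodes 6 microRNAs of a few seed families, and it is known for its part in the growth of many organs, the kidney among them. A microRNA lowers the RNAs whose 3' UTR pairs with its seed, bases 2 to 8 from its 5' end. A targeted allele is also a piece of a chromosome: when it is bred into another strain, neighbouring DNA travels with it, and recombination makes the travelling stretch less likely to reach a gene the farther that gene lies from the locus. The question asked of these genes was therefore whether the genotype difference was concentrated around the locus. The cluster lies at chr14:115043671-115044506, on the forward strand, and its middle at 115.04 Mb is the point from which distances are given, negative toward the centromere.

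The seeds of the cluster serve below to read the 3' UTRs of the members. They are in capitals in these mature sequences, taken from RefSeq's GRCm38 microRNA annotation:
miR-17-5p: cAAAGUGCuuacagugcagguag
miR-19a-3p: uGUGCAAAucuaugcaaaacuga
miR-92a-3p: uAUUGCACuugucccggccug
A full 8-base match to miR-19 is TTTGCACA, to miR-17 and miR-20a GCACTTTA, and to miR-92a GTGCAATA. Mir17 itself was at 12.5, 8.57 and 6.77 RPKM in control replicates 1 to 3 and at 0.787, 0 and 0 RPKM in mutant replicates 1 to 3. The host transcript Mir17hg was at 45.4, 33.6 and 52.9 RPKM in controls and 259, 183 and 194 RPKM in mutants. The mutants were thus lower at the Mir17 entry and higher at the host transcript, without overlap. The Mir17 entry spans the precursor and had 73 control and 2 mutant reads in all, so it is not a measure of the mature microRNA.

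Among the sorted cells, summed markers of nephron progenitors came to 702 to 755 RPKM in controls and 526 to 642 RPKM in mutants, and 2 of 10 were called different. Summed macrophage and leukocyte markers came to 6.28 to 10.5 RPKM in controls and 17.4 to 19.9 RPKM in mutants, and 3 of 6 that passed the filter were called. No marker of any list was at 0 in all libraries. Interstitial (0 of 10 called), ureteric bud (0 of 5), endothelial (0 of 2) and erythroid (0 of 3) sums overlapped between genotypes. Over all genes tested the share called was 3.13%, so 0 calls in lists of 2 to 10 genes say little. The part of these cell types in the differences below was not tested. In bulk RNA, fewer cells of a type and less RNA per cell cannot be told apart.

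Of the 462 members, 42 (9.09%) were called different between genotypes, 11 higher and 31 lower in mutants; over all genes tested the share was 3.13%, with 1.32% higher and 1.81% lower. A call is an adjusted p under 0.05 from limma, with adjustment over all 13463 genes, on log2(RPKM + 0.5); log2 fold changes are on this scale and understate the change of low genes. On all other autosomes combined, 348 of 11982 genes were called (2.9%), and single autosomes ranged from 1.91% to 4.28%. The calls on chromosome 14 were uneven along it. Among the 24 members of its first 10 Mb 13 were called, and among the other 438 members 29 (6.62%). Groups did not overlap in 157 members (34.0%), against 25.1% of all genes tested. Over all genes the median log2 fold change was -0.12, and over the members it was -0.13. With median-of-ratios scaling, which moved the median of all genes to -0.01, the split of calls was 18 higher and 20 lower. The count was 20 without control replicate 1, 14, 18 and 26 without mutant replicates 1, 2 and 3, and 5 when genes of any level entered the fit. Calls over all genes fell in these fits too. Without control replicate 1, 4.33% of members were called, against 1.57% of all genes. Without mutant replicates 1, 2 and 3 it was 3.03%, 3.9% and 5.63% of members, against 1.5%, 1.12% and 1.86%. With genes of any level it was 1.08% of members, against 0.616%.

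**Figure D1:**
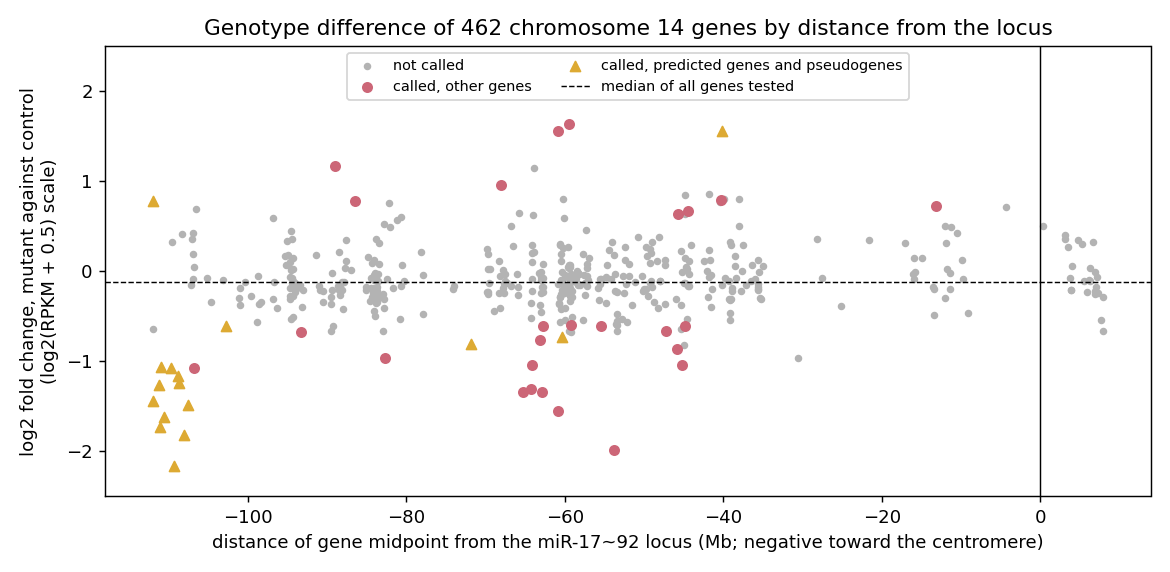
Log2 fold change (mutant against control, log2(RPKM + 0.5) scale) of each of the 462 members against the distance of its midpoint from the miR-17~92 locus in Mb. Coloured points were called, with triangles for predicted genes and pseudogenes; called genes cluster at the far left, and the nearest called point to the locus lies 13.21 Mb away.

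Close to the locus no member was called. Within 10 Mb lay 29 members, 4 on the centromere side and 25 on the telomere side, and limma called 0 of them, against the 3.13% of all genes tested. At an unadjusted p under 0.05 there were 7 of 29, against 19.6% of all genes tested, and groups did not overlap in 9 (31%). Voom on recovered reads called 1, Slitrk6, where it called 5.1% of all genes, and median-of-ratios scaling called 1, Tgds, where it called 3.25%. The rule for choosing members bears on this count. Gpc5, a glypican gene within 10 Mb of the locus that the rule leaves out, had a log2 fold change of 0.95 with an adjusted p of 0.0401, so with the left-out genes kept the count was 1 of 31. The other left-out genes were Gpc6, within 10 Mb and not called (0.03), Bmp4, farther away and not called (0.30), and Rpl15, farther away and called (-1.31).

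The nearest genes on the centromere side, outward from the locus, were Slitrk6, Spry2, Ndfip2, Rbm26 and Obi1. Slitrk6, a neuronal surface protein with leucine-rich repeats, lies at -4.29 Mb. It was at 0.608, 0.887 and 0.285 RPKM in controls and 1.27, 1.39 and 1.07 RPKM in mutants. All mutants lay above all controls, with a log2 fold change of 0.71 ± 0.24 (SE, n = 3 and 3) and an adjusted p of 0.144 from limma. By voom on reads the log2 fold change was 1.16, with an adjusted p of 0.046. Spry2, an inhibitor of FGF receptor signalling that restrains branching in the kidney, was at 48.6, 52.5 and 37.0 RPKM in controls and 44.6, 38.6 and 20.3 RPKM in mutants. The groups overlapped, and mutant replicate 3 was the lowest library (-0.47 ± 0.25, adjusted p 0.31). Ndfip2, an adaptor of Nedd4-family ubiquitin ligases, had means of 19.1 ± 2.0 (control) and 18.0 ± 2.7 (mutant) RPKM, with SD over 3 libraries, and Rbm26, an RNA-binding protein, 54.0 ± 14 and 57.7 ± 5.7 RPKM. Obi1, a ubiquitin ligase acting at replication origins, lies at -10.5 Mb. It was at 17.8, 19.7 and 16.1 RPKM in controls and at 25.1, 21.0 and 26.4 RPKM in mutants, apart but not called (0.43 ± 0.14, adjusted p 0.134).

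On the telomere side the nearest were 4930505G20Rik, Tgds, Gpr180, Abcc4 and Cldn10. Tgds, which encodes a sugar-nucleotide dehydratase, lies 3.08 Mb away and was at 9.89, 8.68 and 9.55 RPKM in controls and 12.1, 12.5 and 12.9 RPKM in mutants. The groups did not overlap, and its log2 fold change of 0.40 ± 0.13 had an adjusted p of 0.129 from limma. With median-of-ratios scaling it was 0.52, with an adjusted p of 0.0483. Its neighbour Gpr180, a membrane protein, was at 6.87, 6.41 and 6.35 RPKM in controls and 9.02, 7.32 and 9.41 RPKM in mutants, also without overlap and not called (0.36 ± 0.15, adjusted p 0.211). Abcc4, an efflux transporter of organic anions, overlapped between groups (1.59 ± 0.24 and 2.03 ± 0.33 RPKM; log2 fold change 0.27). So did Cldn10, a tight-junction claudin (0.944 ± 0.40 and 0.838 ± 0.21 RPKM; -0.08), and the RNA entry 4930505G20Rik, the nearest member at 0.36 Mb (1.41 ± 0.86 and 2.08 ± 0.94 RPKM; 0.50).

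The lowest adjusted p values near the locus belonged to 2 genes toward the distal end that differed the other way. Pcca, the alpha subunit of the mitochondrial enzyme propionyl-CoA carboxylase, lies 7.64 Mb away and was at 6.13, 4.68 and 5.42 RPKM in controls and 3.29, 3.48 and 3.88 RPKM in mutants (-0.54 ± 0.16, adjusted p 0.0987). Ggact, the next gene, which encodes gamma-glutamylamine cyclotransferase, was at 2.58, 2.05 and 2.18 RPKM in controls and 1.26, 1.00 and 1.51 RPKM in mutants (-0.66 ± 0.19, adjusted p 0.0912). In each the mutants lay below the controls without overlap. Of 30 listed genes between the locus and the distal end, 20 were members, and 0 of these were called by limma; 6 had an unadjusted p under 0.05, against 19.6% of all genes tested.

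Although no member near the locus was called, those nearest it lay above the bulk of genes. Of the 10 members within 5 Mb, 8 had a log2 fold change above the median of all genes, and their median lay 0.43 above it. This median was 0.13 above without control replicate 2, and between 0.29 and 0.50 above under the other settings. Ranked by the median size of the difference, the 110 to 120 Mb window, which holds the same 10 genes, was 3 of 246 autosomal windows with at least 10 genes. For all 29 members within 10 Mb the median lay 0.04 above that of all genes, with 18 of 29 above it. The 16 members of the last window, 120 Mb to the end of the chromosome, had a median 0.02 below it.

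**Figure D2:**
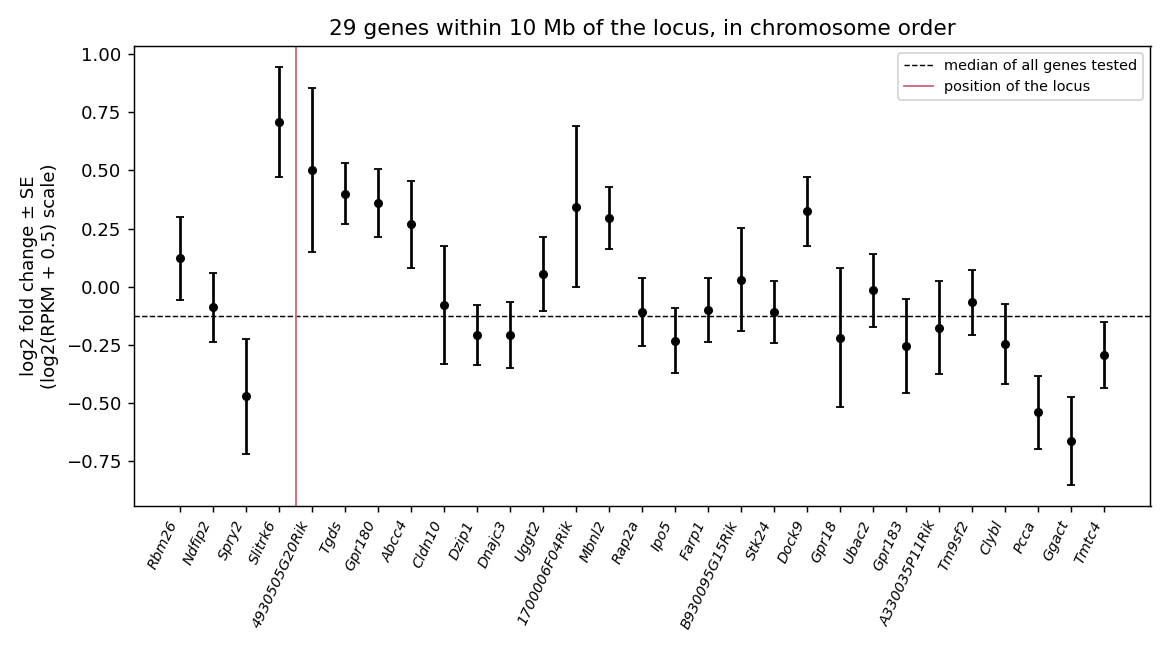
Log2 fold change with its standard error (log2(RPKM + 0.5) scale, 3 libraries per genotype) of the 29 members within 10 Mb, in chromosome order from the centromere side on the left. Values from Slitrk6 to Abcc4 lie above the dashed median of all genes, and Pcca and Ggact near the distal end lie below it.

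In 10 Mb windows, calls did not gather toward the locus. The nearest called member was Lmo7, at 13.21 Mb. On its far side followed a stretch of 26.9 Mb that held 47 members and no call, up to Gm10847 at -40.1 Mb. From 40 to 70 Mb from the locus 22 of 229 members were called (9.61%), beyond 70 Mb but outside the farthest window 6 of 124 (4.84%), and in the 24 members of that window 13 (54.2%). From 10 to 20 Mb it was 1 of 18 (5.56%), so the share did not rise steadily with distance. The window from 50 to 60 Mb on the chromosome held 11 calls in 109 members (10.1%), 9 of them lower in mutants. 12 of 235 windows on other autosomes reached that share. Around the locus, 1 of 16 members from 100 to 110 Mb was called (6.25%), which was Lmo7. In the window that holds the locus, 110 to 120 Mb, 0 of 10 were called, and beyond it 0 of 16. Of those 235 windows on other autosomes 77 (32.8%) also had no call. Across the 462 members, Spearman's rho between distance and the size of the difference was 0.04, and -0.06 over the 438 members outside the first window. These are descriptions across genes of the same 6 libraries.

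**Figure D3:**
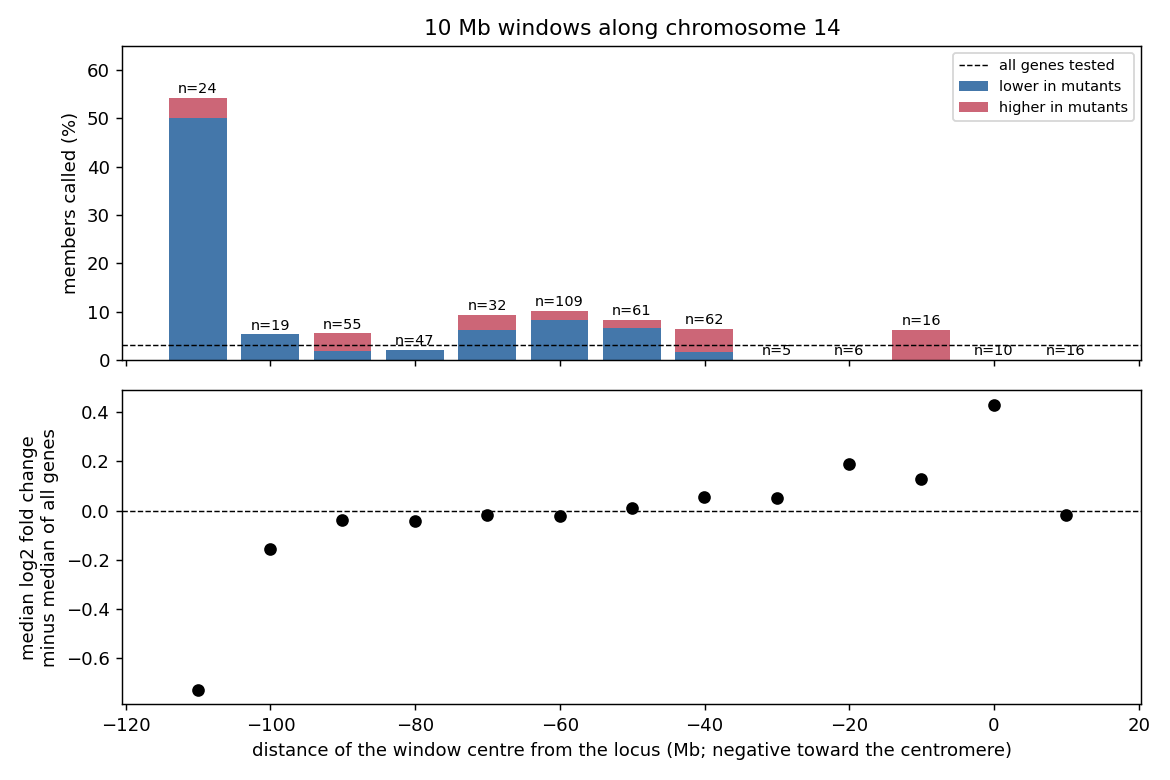
Upper panel, percent of members called in each 10 Mb window against the distance of the window's centre from the locus, split by direction, with the number of members above each bar and the 3.13% of all genes as a dashed line. Lower panel, median log2 fold change of the window minus the median of all genes; the first window stands at 54.2% called and -0.73, and the window at the locus at 0% and 0.43.

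The first 10 Mb, more than 100 Mb from the cluster, held the densest change on the chromosome. 13 of 24 members were called, 12 of them lower, and no other autosomal window with at least 10 genes reached this share; the highest on another autosome was 20% (2 of 10 genes). Of its 16 predicted genes and pseudogenes 12 were called (75.0%), 11 lower and 1 higher. Over all genes tested 55 of 937 such entries were called (5.87%), and 4 of 33 elsewhere on chromosome 14 (12.1%). These lower genes belong to a multicopy family of related predicted genes, related to alpha-takusan, a tandemly repeated rodent family known for regulators of synaptic scaffolds. Of the 8 other members in the window 1 was called (12.5%, against 3.13% of all genes tested). The 13 calls of the window became 8 without mutant replicate 1 or 2, 9 without control replicate 1 or mutant replicate 3, and 3 when genes of any level entered the fit. In these fits the share called over all genes was lower as well, between 0.616% and 1.86%. Members that passed the filter through the controls alone were not counted by window, and the 7 of these that were called may include some of the 13. With a mean of at least 1 RPKM required, 18 members of the window were left and 9 were called, 8 of them lower. The median of the window minus that of all genes was -0.73 with all 24 members, -0.48 with a pseudocount of 1, and 0.02 with these 18, so its sign rests on members with means between 0.5 and 1 RPKM. The longest run of neighbouring calls on the chromosome, 5 genes from Gm3002 to Gm3500, lies here.

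Coding sequences of the related copies opened with 1 of 2 stretches or nearly so. Between them the 2 stretches differ widely, as the Gm2897 opening matched that of Gm3373 at 29 of 90 bases. For each entry the coding transcript nearest to either opening was taken, and 4 entries are shown. These are the first 90 coding bases, read 5' to 3' on each gene's strand from GENCODE transcripts on GRCm38; capitals mark bases that differ from the first sequence of the same type:
Gm3373: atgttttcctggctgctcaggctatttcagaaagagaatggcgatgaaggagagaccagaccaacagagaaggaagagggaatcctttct
Gm5796: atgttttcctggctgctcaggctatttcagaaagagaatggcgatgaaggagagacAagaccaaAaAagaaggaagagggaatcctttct
Gm2897: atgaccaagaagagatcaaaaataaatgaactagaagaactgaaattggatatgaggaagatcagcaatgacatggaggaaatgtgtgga
Gm3173: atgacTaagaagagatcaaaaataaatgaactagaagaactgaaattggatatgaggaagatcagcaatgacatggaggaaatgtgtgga
The Gm3373 opening was identical in Gm3095, Gm10406, Gm3558, Gm3500, Lamtor3-ps, Gm10340, Gm3194 and Gm3636, and the Gm2897 opening in Gm3411, while Gm3002 differed from it at 1 base. Lamtor3-ps and Gm3636 also had transcripts of the Gm2897 type, the same at 89 and 88 of 90 bases. Lamtor3-ps is the files' entry at the position of GENCODE's Gm3591. Gm3373 lies at chr14:5718468-5742246 on the reverse strand, Gm5796 at chr14:4023941-4041368, Gm2897 at chr14:3049285-3076840 and Gm3173 at chr14:4498534-4520509, these on the forward strand.

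Gm3373 had the lowest log2 fold change of any member. It was at 4.6, 4.20 and 5.94 RPKM in controls and 0.181, 1.22 and 0.953 RPKM in mutants, a log2 fold change of -2.17 ± 0.30 (adjusted p 0.00257). Mutant replicate 1 was the lowest library, and no mutant reached a control. Gm10406 was at 5.57, 4.54 and 6.19 RPKM in controls and 0.744, 2.19 and 0.890 RPKM in mutants (-1.82 ± 0.26, adjusted p 0.0031). Gm3095 was at 4.71, 3.68 and 5.22 RPKM in controls and 0.611, 1.29 and 1.21 RPKM in mutants (-1.73 ± 0.22, adjusted p 0.00138). The groups were again apart, and in both genes the lowest value was that of mutant replicate 1. Gm3173 fell by 1.62 on the log2 scale, Gm3558 by 1.48 and Gm2897 by 1.44. The other lower copies, Gm3002, Lamtor3-ps, Gm3411, Gm3500 and Gm5796, had log2 fold changes between -1.26 and -1.06.

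Not every copy fell. Gm3636 was at 0.942, 1.01 and 1.66 RPKM in controls and 1.5, 1.47 and 2.33 RPKM in mutants, with overlapping groups and a log2 fold change of 0.41 ± 0.23. Gm3194 was at 0.806, 0.692 and 0.578 RPKM in controls and 1.98, 0.585 and 0.725 RPKM in mutants, the first mutant library standing above the rest (0.33 ± 0.29). Gm10340 was at 0.826, 0.568 and 1.09 RPKM in controls and 0.169, 0.461 and 0.418 RPKM in mutants, apart but not called (-0.64 ± 0.24, adjusted p 0.181). None of these 3 passed the test.

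Values of single copies are uncertain, because the reads of near-identical genes may have been split or moved between them. Of Gm3373's 31-base words 98.5% occurred in other genes, of Gm2897's 92.8% and of Gm3194's 100%. At least 20% of words were shared by 12 of the 13 called members of the window, by 2 of the 29 called elsewhere (6.90%) and by 20 of 404 uncalled members elsewhere (4.95%). Reads were therefore also summed over entries, so that a read moved between the summed entries no longer matters. Entries were taken into the sum by name and position, and whether each belongs to the family was not checked. All 55 predicted Gm entries of the first 10 Mb, of which 46 had reads, came, in RPM (recovered reads scaled to depth alone), to 76.0, 64.0 and 89.3 over the 3 controls, and to 17.0, 28.3 and 22.2 over the 3 mutants. Every mutant sum lay below every control sum. With Lamtor3-ps added (56 entries) the sums were 78.8, 65.3 and 92.1 RPM in controls and 17.7, 29.0 and 22.6 RPM in mutants. The entries under the filter were a small share of this, 4.44, 3.27 and 5.51 RPM in controls and 3.54, 2.41 and 2.35 in mutants. Reads could also have been placed on entries outside the sum, which was not tested. Gm3141 is such an entry, in the 40 to 50 Mb window, and with Tmem254c it makes up the 2 called elsewhere. It shared 83.4% of its words with other genes and was called lower in mutants. Over the other settings its log2 fold change lay between -0.92 and -0.66, and the call was kept in 9 of 17. More than 20% of its words were shared with each of 48 genes, the closest being Gm8024 on chromosome 14 at 78.5%. Among the related first-window entries the number of such genes ran from 47 (Gm2897) to 66 (Gm10406). Whether Gm3141 is a copy of that family was not tested further.

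**Figure D4:**
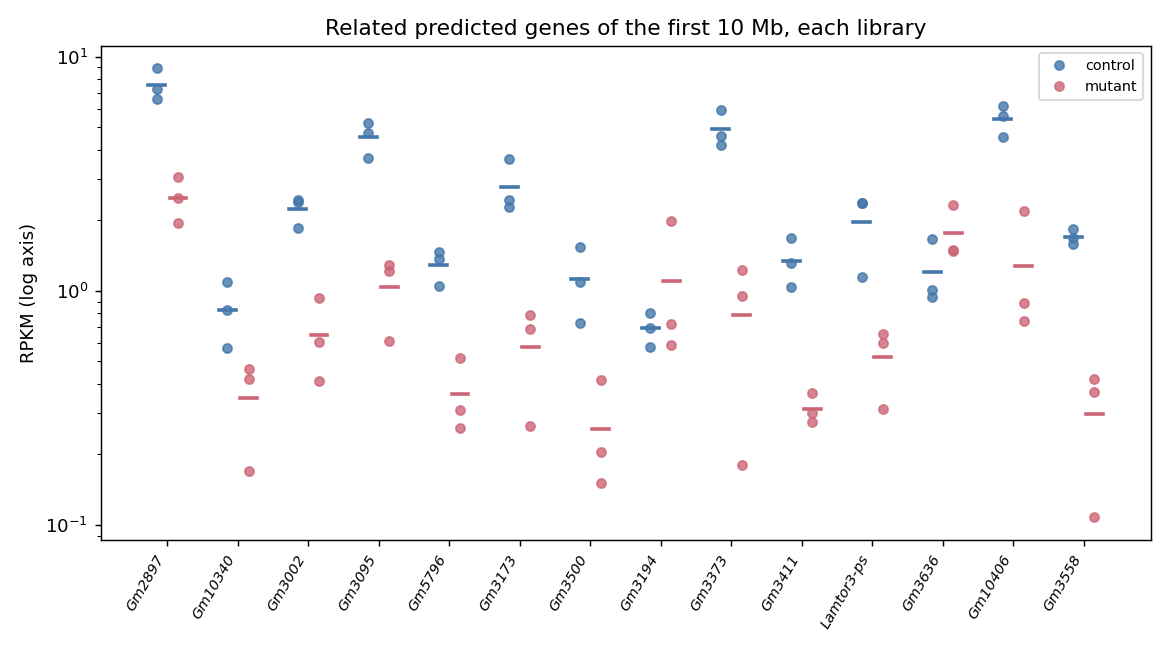
RPKM (log axis) of 14 related entries of the first 10 Mb in each library, in chromosome order, controls in blue and mutants in red; the short lines are the means of 3 libraries. In 12 entries all mutants lie below all controls, and in Gm3194 and Gm3636 the groups overlap.

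The other first-window changes ran in both directions. Fam107a, an actin-associated protein of the stress response, shares 1.08% of its words with other genes. It was at 38.5, 39.2 and 50.5 RPKM in controls and at 14.2, 24.0 and 22.7 RPKM in mutants, all below the controls (-1.08 ± 0.19, adjusted p 0.0107). Esd-ps, a processed copy of the esterase D gene, rose from 6.31, 7.45 and 5.10 RPKM to 9.59, 10.2 and 13.6 RPKM (0.77 ± 0.18, adjusted p 0.0391). It lies inside Gm2897, which moved the other way, and shares 90.1% of its words with other genes. Its parent Esd, at -40.3 Mb, was higher in mutants too, at 9.04, 9.17 and 7.06 RPKM in controls and 16.5, 13.3 and 15 RPKM in mutants (0.79 ± 0.15, adjusted p 0.0146). Esd shares 12.1% of its words. Cfap20dc, next to Fam107a, was at 2.24, 2.45 and 2.09 RPKM in controls and 4.77, 3.47 and 3.67 RPKM in mutants, just outside the threshold (adjusted p 0.0546). Pdhb, a subunit of pyruvate dehydrogenase, was also apart and not called (0.43 ± 0.15).

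Outside the first window, called falls were spread over the middle of the chromosome. Armh4, at 3.47, 4.44 and 3.21 RPKM in controls, was at 0.830, 1.62 and 1.08 RPKM in mutants (-1.34 ± 0.21, adjusted p 0.00482). Snord8, a small nucleolar RNA inside an intron-bearing host, Chd8, fell by 1.34 on 60 control and 19 mutant reads. Its reads cannot be told apart from those of the genes it overlaps.

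The largest rise was that of Rec8, the meiotic kleisin subunit of cohesin. It was at 0.611, 0.283 and 0.225 RPKM in controls and 1.67, 1.98 and 3.00 RPKM in mutants, every mutant above every control (1.63 ± 0.24, adjusted p 0.00358). Its control mean lay under 0.5 RPKM, so Rec8 passed the filter through the mutants, and its call is of the kind that the filter favours. Samd4, a translational repressor related to fly Smaug, was at 1.70, 1.61 and 1.29 RPKM in controls and 3.70, 3.15 and 3.47 RPKM in mutants (0.96 ± 0.17, adjusted p 0.0107). Gm10847, which overlaps Lrch1, was at 0.589, 0.348 and 0.874 RPKM in controls and 2.93, 2.11 and 3.08 RPKM in mutants (1.55 ± 0.23, adjusted p 0.0031). Tmem254c rose from 0.392, 0.719 and 0.452 RPKM to 1.79, 1.56 and 1.99 RPKM, but all its words also occur in Tmem254b, so the copies cannot be separated. The T-cell receptor joining segments Traj43 and Traj5 were called in opposite directions, on 1 control and 7 mutant reads and on 6 control and 0 mutant reads. Each passed the filter through the group where it was higher.

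**Figure D5:**
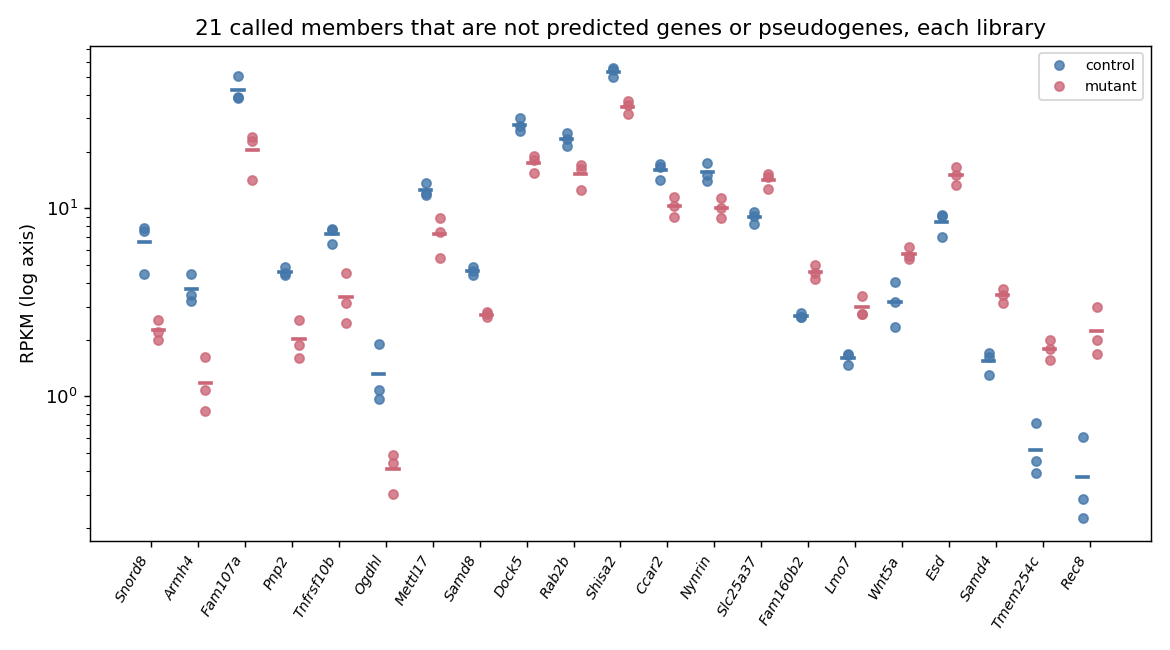
RPKM (log axis) per library of 21 called members that are not predicted genes or pseudogenes and had reads in every library, ordered by log2 fold change from Snord8 at -1.34 to Rec8 at 1.63, controls in blue and mutants in red with lines for the means. In each the 3 controls and 3 mutants do not overlap.

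The lists of regulators, signals, adhesion proteins and transporters are small, and with 3.13% of all genes called, 1 call in such a list says little about the list. Of 13 signalling and developmental members of a list of 19, 1 was called (7.69%, against 3.13% of all genes tested): Wnt5a, a non-canonical Wnt ligand that shapes early kidney outgrowth. It was at 3.16, 4.06 and 2.33 RPKM in controls and 5.55, 6.24 and 5.34 RPKM in mutants, apart in every library (0.78 ± 0.19, adjusted p 0.0465). Egr3, an immediate early transcription factor of the same list, was at 1.80, 1.47 and 2.01 RPKM in controls and 0.630, 0.686 and 1.02 RPKM in mutants, with an adjusted p of 0.0514. Nr1d2, a circadian repressor among 14 members of a list of transcription and chromatin regulators, was higher in every mutant library than in any control and not called (4.37 ± 0.48 and 6.83 ± 0.68 RPKM, adjusted p 0.0617).

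Of 10 adhesion and neuronal surface members, 1 was called, again against 3.13% of all genes. This was Lmo7, an actin-associated protein of cell junctions, at 1.68, 1.65 and 1.46 RPKM in controls and 2.73, 2.74 and 3.42 RPKM in mutants (0.72 ± 0.17, adjusted p 0.0441). The protocadherin Pcdh17 was at 1.03, 0.815 and 1.89 RPKM in controls and 0.448, 0.322 and 0.335 RPKM in mutants, apart and not called (adjusted p 0.0613). Of 7 transport members, 1 was called (all genes, 3.13%): Slc25a37, mitoferrin 1, which imports iron into mitochondria, at 9.06, 8.27 and 9.53 RPKM in controls and 15.2, 12.7 and 14.6 RPKM in mutants (0.63 ± 0.14, adjusted p 0.0295). The channel Vdac2 of the outer mitochondrial membrane overlapped between groups (84.2 ± 19 and 62.7 ± 8.2 RPKM). Fam160b2 was called as well, at 2.63, 2.76 and 2.64 RPKM in controls and 5.0, 4.19 and 4.50 RPKM in mutants (0.67 ± 0.15, adjusted p 0.038). The calls of Wnt5a, Lmo7, Slc25a37 and Fam160b2 sat close to the threshold: of 17 other settings they were kept in 9, 8, 10 and 10. That of Esd-ps was kept in 9.

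Some further called genes, picked after their values were seen, show the range of functions. Tnfrsf10b, a death receptor for the ligand TRAIL, was at 7.72, 6.46 and 7.66 RPKM in controls and 2.45, 3.11 and 4.54 RPKM in mutants (-1.04 ± 0.20, adjusted p 0.0146). Pnp2, a purine nucleoside phosphorylase, fell from 4.6 ± 0.23 to 2.01 ± 0.49 RPKM (SD, n = 3 each). Mettl17, which acts in assembly of the mitochondrial ribosome, fell from 12.5 ± 0.99 to 7.25 ± 1.7 RPKM. Shisa2, which holds Wnt and FGF receptors back in the endoplasmic reticulum, fell from 53.2 ± 3.0 to 34.6 ± 2.8 RPKM. Dock5, an activator of the GTPase Rac, fell from 27.8 ± 2.3 to 17.4 ± 1.9 RPKM. In each the mutants lay below the controls in all 3 libraries.

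Matches to the seeds of the deleted cluster were looked for in the longest GENCODE 3' UTR of each member, on the transcript strand, as the 8-base matches given above and GCACCTTA for miR-18a. At least 1 was held by 1 of 8 members called higher (12.5%), 11 of 27 called lower (40.7%) and 55 of 382 not called (14.4%), against 1725 of 11752 genes tested (14.7%). Members within 10 Mb had one in 5 of 25. The matches of the lower genes were mainly a single inherited site: 9 of the 11 were copies of the first-window family, each with a miR-19 match in the same surroundings. Shown here are that site and those of the other called genes, with the match in capitals:
Gm3373: aagaattttgcTTTGCACAatttttgtggt
Gm3095: aagaattttgcTTTGCACAgtttttgtggt
Rab2b: acttctgtaccTTTGCACAaactctaccct
Dock5: tggagagtacaGTGCAATAtgattatttat
Samd4: caccccaatcaGCACTTTAtaacaacacca
Gm10340, Gm3194 and Gm3636, the copies that were not called, also held 1 miR-19 match each, so the match was present in copies that fell and in copies that did not pass the test. Gm3002, a copy called lower, held 0 matches in a 3' UTR of 1133 bases. Samd4 was the only called-higher member with a match, to miR-17 and miR-20a. Rab2b, a small GTPase of the secretory pathway, was lower in mutants, at 21.5, 23.4 and 25.2 RPKM in controls and 12.4, 16.9 and 16.2 RPKM in mutants. A match is a stretch of letters and was not tested as a site.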

How the data were processed

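RNA from sorted nephron progenitors was measured in 3 control and 3 mutant libraries. The authors deposited RPKM values per Entrez Gene entry (27179 entries); the build was mm10 per the submitters' processing notes, and for the counting tool, annotation and strand setting nothing is given in the sources used here. Reads of overlapping or antisense genes may therefore be mixed. Positions came from RefSeq's GRCm38.p6 table, matched on gene ID for 25275 entries; 494 tested genes had none. Windows used gene midpoints. Whole reads were recovered from the steps of the RPKM values for all 13463 tested genes, and depth from short entries of known length. At these depths 1 read on 1 kb is worth 0.0277 to 0.0362 RPKM; floors (3 reads) cover counting error only.

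The genotype test was limma (version 3.58.1, R 4.3.3). Values were log2(RPKM + 0.5), for genes whose 6-library mean reached 0.5 RPKM. Genotype was the single term, variances followed the mean, and two-sided p-values were Benjamini-Hochberg adjusted over all genes at 0.05. Pools are separate groups of embryos as far as the labels say, so p-values measure the spread between these pools. Shared 31-base words (minimum 20%) and seed matches were counted with Python 3.11.15 against GENCODE transcripts; a word counted when it occurred in another gene that does not overlap.

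Named genes were the 5 members nearest the locus on each side, any called within 10 Mb, the 10 largest called log2 fold changes in each direction, and up to 2 of lowest p in each of 5 lists of chromosome 14 genes; others named are additions made after values were seen. Some genes that this rule names are not reported here. Members, lists and settings were chosen with earlier results of these data known. Alternatives were each library left out, a replicate block, weights for samples, the model of variance, scaling, filter, pseudocount, threshold, voom on recovered reads, the distance counted as near, gene start for midpoint and leaving out predicted genes.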

Additional observations from a re-analysis of the deposited data

How the results depend on the processing

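The count of called members was 42 of 462, all of them farther than 10 Mb from the locus. With genes of any level in the fit it fell to 5 in all and 5 far from the locus. That was 1.08% of members, against 0.616% of all genes in that fit. Without pseudogenes and predicted genes it was 26 in all and 26 far. Leaving out each library gave 14 to 59 in all, 14 to 59 far from the locus and 0 to 0 within 10 Mb. The 14 (without mutant replicate 1) were 3.03% of members, against 1.5% of all genes. The 59 (without control replicate 3) were 12.8% of members, against 8.18% of all genes. The 0 members called within 10 Mb became 1 with median-of-ratios scaling, 1 with quantile normalization, 1 with voom on recovered reads, 2 at an adjusted p of 0.1 (Pcca and Ggact), 1 when 20 Mb counted as near (Lmo7), and 1 with the 4 left-out genes kept (Gpc5), an alternative added after the data were seen. With the replicate number as a block, 36 members were called, 0 within 10 Mb; same-numbered libraries deviated together with correlations of 0.05, 0.16 and 0.15, and each control correlated best with its own number, a hint from the data and not from the design. All 42 called members kept their sign in each alternative of the fit that held them, 17 for most and 16 for the 8 that the filter at 1 RPKM leaves out. Without each library in turn 14 stayed called, and 4, with Gm2897, Gm3095 and Gm3558 among them, in every alternative that held them. Gm3558 is 1 of the 8 left out at 1 RPKM, so 16 alternatives held it, and its call may be of the kind that the filter favours. The cause of the changes in count between settings was not tested. The design has 3 pools per genotype, each with its own depth, and genes under 0.5 RPKM and entries without a position were not analysed here.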
